A study of Saccharomyces cerevisiae with 48 samples.

Results

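The regions described here are the 16 pericentromeric windows of the budding yeast genome. Each window was taken as the stretch between the innermost left-arm gene and the innermost right-arm gene of a chromosome, which holds the centromere, plus 20 kb on either side. The windows sum to 657.5 kb, 5.45% of the 12.06 Mb nuclear genome, and hold 389 of the 6431 annotated nuclear genes. Peaks were assigned by their midpoints. Over all 24 lists 5150 of 83171 nuclear peaks fell within the windows, with 122 to 316 per list, and another 9434 lay 20 to 60 kb from the intervals. Each list came from 1 library, so every group has 1 sample and no replicate.

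The study mapped RNA polymerase II and negative supercoiling in strains with alleles of the helicases Sen1 and Rrm3. RNA polymerase II was mapped by ChIP-seq with an antibody to its largest subunit, Rpb1, in S-phase cells of 4 strains: wild type, sen1, rrm3 and sen1rrm3. Supercoiling was mapped by bTMP-seq, which captures DNA crosslinked to biotinylated trimethylpsoralen, a compound that intercalates better into underwound DNA. The bTMP libraries covered those 4 strains in S phase, in logarithmic growth and at 32 °C, the 4 strains with top1 in logarithmic growth, and the 4 strains with top2-1 at 32 °C. All cultures were first grown in YPG and then moved to YPD. S-phase cells were arrested with alpha factor in YPD and harvested 45 to 50 min after release at 23 °C. Logarithmic cells spent 2.5 h in YPD, and the cultures labelled 32 °C spent 1.5 h in YPD at 25 °C and then 1 h at 32 °C. The labels give the genotypes by these short names and do not describe how the alleles were made. Strain background and clone numbers are not given in the labels.

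Each budding yeast chromosome has a point centromere, a short DNA element that carries a single centromeric nucleosome and binds the kinetochore, which attaches the chromosome to the spindle. The flanking pericentromeric chromatin is rich in cohesin and condensin and is held under tension in mitosis. Topoisomerase I, encoded by TOP1, and topoisomerase II, encoded by TOP2, relax the supercoils that transcription and replication create. Sen1 is a helicase that ends transcription at many noncoding genes and removes RNA-DNA hybrids, and Rrm3 is a helicase that helps replication forks past tightly bound proteins, centromeres among them.

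The values are peak lists without reads, so the depth behind them is unknown. The quantity used throughout is relative cover, the share of base pairs under peaks within the windows divided by the share under peaks in the rest of the nuclear genome. A value of 1 means that peaks cover the windows and the rest of the genome equally. The 20 bTMP lists were of 2 kinds. In 14 lists the closest neighbouring peaks were 156 to 166 bp apart and peaks covered 6.997% to 11.7% of the genome. In the other 6, the 4 S-phase lists and the sen1 and sen1rrm3 lists at 32 °C, the closest peaks were 591 to 631 bp apart and peaks covered 17.5% to 25.9%. These 6 lists are called widely spaced, and comparisons that mix the kinds are named. No peak touched RRM3 in any of the 10 bTMP lists of rrm3 strains, against 7 of the 10 others. TOP1, which lies inside the window of chromosome XV, was touched in 1 of the 4 top1 lists (10.8% of its body, sen1rrm3top1) and in all 4 TOP1 lists of logarithmic cells (14.3% to 44.2%).

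RNA polymerase II peaks covered the pericentromeric windows about as much as the rest of the genome. Relative cover was 1.02 in wild type, 0.996 in sen1, 1.08 in rrm3 and 1.03 in sen1rrm3. The 4 lists lay close together and on both sides of 1. The left-arm sides of the windows were more covered (23.2% to 24.6%) than the right-arm sides (15.9% to 17.4%), and these ranges did not overlap. The 4 lists cover the same genes, so they do not repeat this comparison of sides. Median window cover ran from 0.585% on chromosome IX to 40.0% on chromosome II, and whether the sides differ over chromosomes was not tested. By distance in 1 kb steps, Rpb1 cover was lowest 6 to 7 kb from the interval in all 4 lists, with a median of 0.60 times the genome level, and highest at 8 to 9 kb, with a median of 1.43. In 5 kb bins all 4 Rpb1 lists were above the genome level at 15 to 20 kb (1.18 to 1.24, median 1.22) and more so just outside the windows at 20 to 25 kb (median 1.59). Rpb1 relative cover was on average 0.04 on the log2 scale, and its sign turned with the choice of window and peaks, so no excess or lack of polymerase is called.

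Supercoiling peaks, in contrast, covered the windows more than the rest of the genome in most libraries. In logarithmic cells relative cover was 1.59 in wild type, 1.46 in sen1, 1.44 in rrm3 and 1.30 in sen1rrm3. In S phase it was 1.42 in wild type, 1.33 in sen1, 1.14 in rrm3 and 1.20 in sen1rrm3. All 8 of these lists lay above 1, and the wild-type list was the highest in each condition. At 32 °C it was 1.06 in wild type, 1.22 in sen1, 1.02 in rrm3 and 1.20 in sen1rrm3. With top2-1 at 32 °C it was 1.15 in top2-1, 1.19 in sen1top2-1, 1.10 in rrm3top2-1 and 1.13 in sen1rrm3top2-1. These 8 lists also lay above 1, and their range overlapped that of the S-phase lists but not that of the logarithmic ones. In the top1 strains it was 0.948 in top1, 0.909 in sen1top1, 1.13 in rrm3top1 and 0.885 in sen1rrm3top1, and 3 of these 4 lists were the only ones of the 20 below 1.

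Over the 20 bTMP lists, the mean log2 relative cover was 0.23 ± 0.23 (SD, n = 20), a geometric mean of 1.18. It was above 0 in 17 of 20 lists (two-sided sign-flip permutation test over lists, p = 0.00017). This test and the paired tests below treat lists of different strains as repeats of each other, so that their p-values measure a shared direction over lists and not the spread between replicate cultures. All 20 lists also share the same windows, and bins outside them share directions too. At 35 to 40 kb 20 of 20 lists were above the genome level, and at 45 to 50 kb 0 were. The p-value thus cannot show that the windows stand out from other parts of the genome. Against the neighbouring 20 to 60 kb the excess was smaller, with a mean log2 of 0.11, above 0 in 15 of 20 lists (same permutation test, p = 0.00571). In the 14 closely spaced lists alone this second comparison did not pass, with a mean log2 of 0.09, above 0 in 9 of 14 (permutation p = 0.078). In wild type and rrm3 at 32 °C window cover was 0.995 and 0.997 times that of these flanks. In absolute terms, peaks covered 12.9% of the windows and 8.07% of the rest of the genome in wild-type logarithmic cells.

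**Figure D1:**
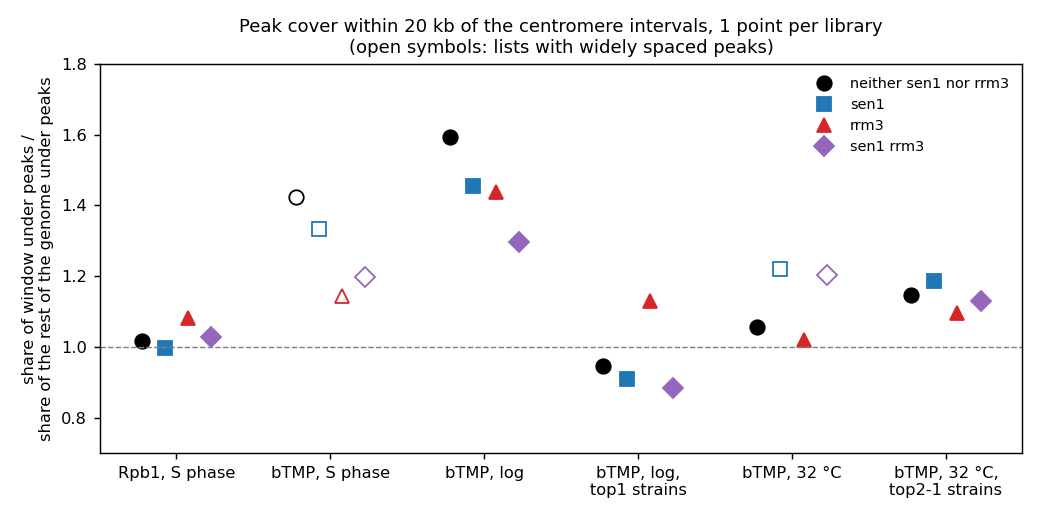
Relative cover of the pericentromeric windows (y axis, share of the windows under peaks over the share of the rest of the genome under peaks) for each of the 24 libraries, 1 point each, grouped by assay and condition. The 4 TOP1 lists of logarithmic cells sit between 1.30 and 1.59 and the 4 top1 lists between 0.885 and 1.13.

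The windows differed little from the rest of the genome in gene content. They held 52.0 gene starts per 100 kb against 49.6 outside, and stretches of 300 bp upstream of genes made up 13.9% of the windows against 13.4% outside. Coding sequence made up 71.5% against 73.0%. bTMP cover was higher in the windows within upstream and coding stretches, but not in the remaining sequence, where the ratio had a median of 0.923 and was above 1 in 7 of 20 lists. In logarithmic TOP1 cells the ratio of window to outside cover had a median of 1.32 in upstream stretches and 1.53 in coding sequence. In the top1 lists the medians were 0.924 and 0.980. In the remaining sequence they were 1.14 in the TOP1 lists and 0.689 in the top1 lists.

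The excess was neither spread evenly over distance nor confined to the windows. In 5 kb bins the median over all 20 bTMP lists was 1.15 at 0 to 5 kb and 1.33 at 10 to 15 kb. Outside the windows it was 1.32 at 65 to 70 kb and 1.24 at 80 to 85 kb, but 0.8545 at 45 to 50 kb and 0.884 at 85 to 90 kb. In 18 of the 20 bTMP lists the 1 kb step at 5 to 6 kb from the interval was the least covered, with a median of 0.53 times the genome level. That step held 11 gene starts over the 16 chromosomes, and upstream stretches made up 10.8% of it. The most covered step was 11 to 12 kb, with a median of 1.53 over all lists and 1.96 in logarithmic TOP1 cells, and all 20 lists were above the genome level there. That step held 20 gene starts, and upstream stretches made up 15.6% of it. Other steps did not keep this order. The step at 12 to 13 kb held 10 gene starts with a median of 1.29, and that at 0 to 1 kb held 24 with a median of 0.980. Whether gene starts go with cover was not tested. In 5 kb bins, the median of the logarithmic TOP1 lists was highest at 10 to 15 kb, at 1.59, although the wild-type list was highest at 0 to 5 kb (1.66) and the sen1rrm3 list at 65 to 70 kb (1.63). The median of these lists stayed above 1 out to 45 kb, and at 45 to 50 kb all 4 lists were below 1. Farther out the median lay on both sides of 1, with 1.35 at 65 to 70 kb and 1.21 at 80 to 85 kb. It was 0.917 at 60 to 65 kb and 0.857 at 85 to 90 kb.

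**Figure D2:**
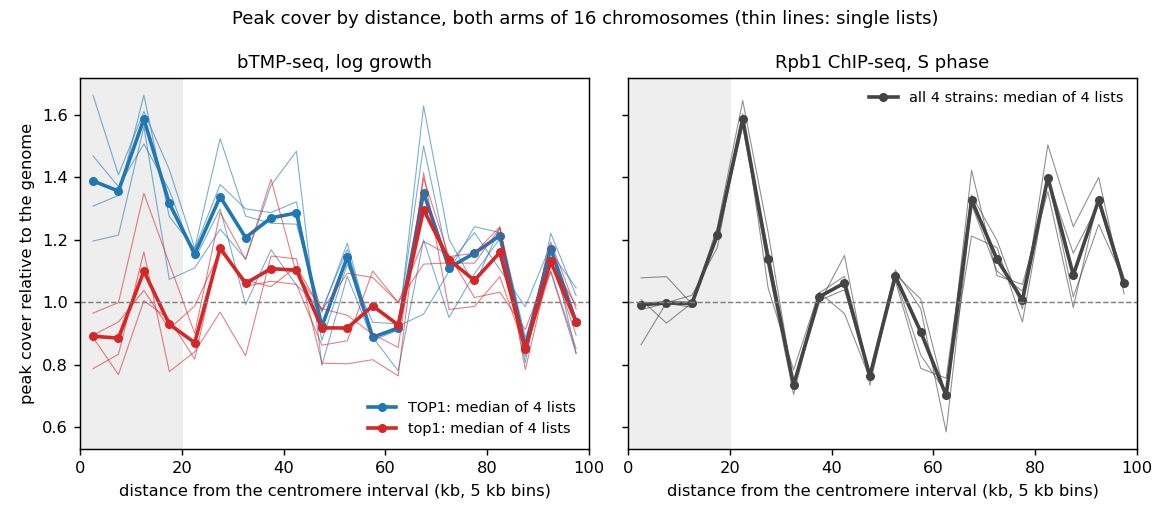
Peak cover relative to the genome (y axis) by distance from the centromere interval in 5 kb bins (x axis), with the 20 kb window shaded. Thin lines are single lists and thick lines medians of 4; the logarithmic TOP1 median is 1.59 at 10 to 15 kb where the top1 median is 1.10, and the Rpb1 lists lie between 0.864 and 1.08 in the first 3 bins and between 1.56 and 1.65 at 20 to 25 kb.

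Chromosomes differed among themselves. Set against the rest of its own chromosome, the window of chromosome I was more covered in all 20 bTMP lists, with a median ratio of 1.99, and so was that of chromosome II, with a median of 1.67. The windows of chromosomes IV and VIII were more covered in 19 lists each, and those of VI and VII in 18 each. Chromosomes V, XII and XVI went the other way, with 3 of 20 lists above their own chromosome and medians of 0.748, 0.795 and 0.714. The windows of chromosomes I and II were also above their own chromosomes in Rpb1 cover, with medians of 3.17 and 2.35 over 4 lists, whereas chromosome VII had a bTMP median of 1.44 with an Rpb1 median of 0.889. The rest of each chromosome includes its ends, and in the outer 20 kb Rpb1 relative cover was 0.146 in wild type. The window of chromosome II holds YBL005W-B, a Ty1 element gene in repeated sequence, whose cover is uncertain. How far either affects these ratios was not tested.

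**Figure D3:**
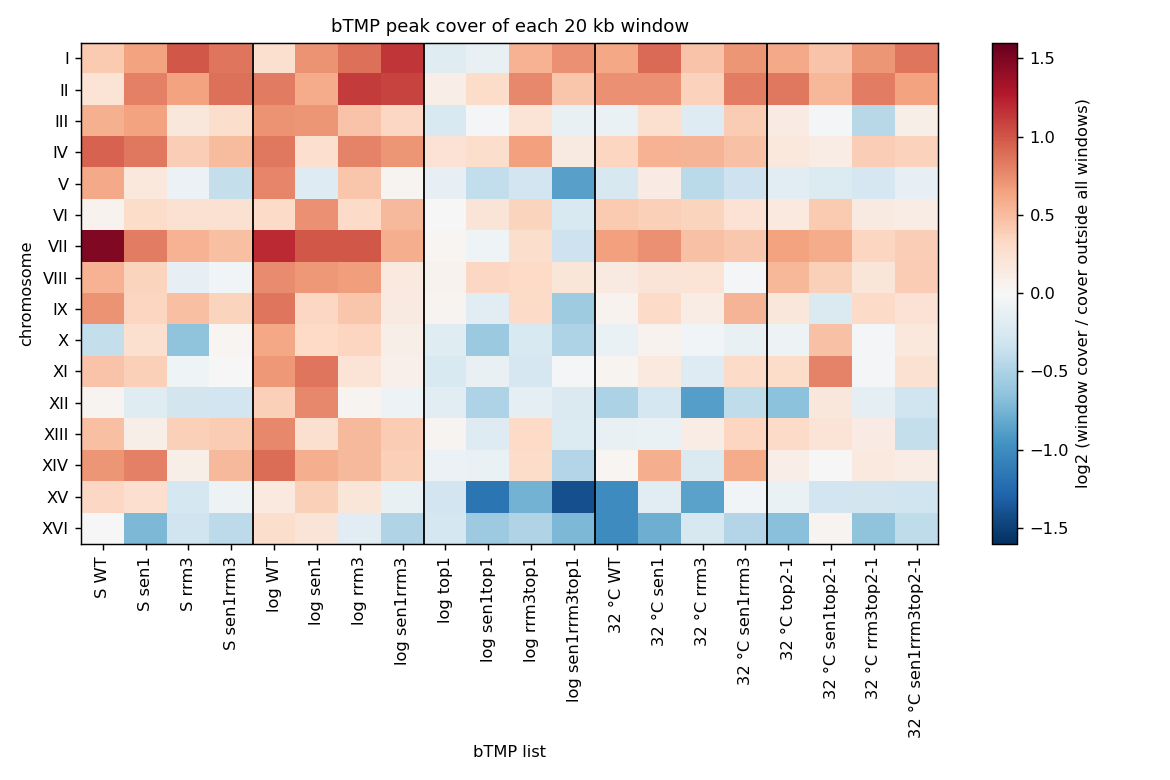
Colour gives the log2 ratio of bTMP cover in the window of each chromosome (y axis) to the cover outside all windows, for each of the 20 bTMP lists (x axis, vertical lines between conditions). The columns of the 4 top1 lists are bluer than the logarithmic TOP1 columns beside them, and chromosome XV is lowest with top1.

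The intervals between the innermost genes, 630 to 2541 bp long, are where the centromeres lie. bTMP peaks touched 162 of 320 combinations of interval and list, and each list touched 5 to 11 of the 16 intervals. They were grouped by the orientation of the flanking genes, and the tandem and convergent groups overlapped in how many lists touched each interval. The 2 intervals between diverging genes, on chromosome I between TFC3 (a TFIIIC subunit) and NUP60 (a nuclear pore protein) and on chromosome V between IRC22 and MNN1 (a mannosyltransferase), were touched in all 20 lists. The 9 intervals between genes read in the same direction were touched in 102 of 180 combinations (56.7%). The 5 between converging genes were touched in 20 of 100 (20.0%), 14 of which were on chromosome IX.

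Other intergenic stretches of the same length range were touched in 58.1% of combinations between diverging genes, 54.6% between genes in tandem and 43.1% between converging genes. The centromere intervals thus lay above these levels where genes diverged, close to them in tandem and below them where genes converged. No test was made, since only 2 intervals are divergent and 5 convergent. Lengths were not matched within the range, whose upper end is the divergent interval of chromosome V, at 2541 bp. The intervals on chromosomes IV, XV and XVI were touched by no list of either assay. The interval on chromosome IV lies between the 3′ ends of RMD1 and NTH1, a neutral trehalase, while RRP6, beside the interval of chromosome XV, encodes a nuclear exosome nuclease.

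In some touched intervals the closely spaced lists had peaks at nearly the same place. On chromosome X, between PRE3 (a proteasome subunit) and AVT1 (a vacuolar amino acid transporter), a peak spanned chrX:436256-436669 in wild-type logarithmic cells, chrX:436257-436664 in top1, chrX:436233-436668 in wild type at 32 °C and chrX:436255-436667 in top2-1. Peaks touched this interval in 19 of 20 lists and covered a median of 54.1% of it. On chromosome II, between ECM15 and NTH2 (a trehalase), the peak was chrII:237619-237986 in wild-type logarithmic cells and chrII:237622-237987 in top1. On chromosome I it was chrI:151907-152335 and chrI:151917-152337 in the same lists. The widely spaced lists had longer peaks there, such as chrII:236405-237983 in sen1 at 32 °C. On chromosome IX the place differed between lists, with chrIX:356060-356783 in top1 and chrIX:355376-355535 in wild type at 32 °C, at opposite ends of the interval. These are the deposited coordinates, whose genome build no label or file names. The position of the centromere element within each interval was not used, so whether a peak lies on it was not tested.

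Rpb1 peaks covered little of the same intervals. The share was 5.94% in wild type, 6.70% in sen1, 6.47% in rrm3 and 6.404% in sen1rrm3, between 0.314 and 0.342 times the genome level. They touched 21 of 64 combinations, and no interval was covered by 50% or more in any Rpb1 list. Rpb1 touched the intervals of chromosomes II, V, VIII and XIV in all 4 lists. Those intervals border genes under Rpb1 peaks: ECM15, MNN1 and RPL14B, a ribosomal protein gene, were covered over 100% of their bodies in all 4 lists, and CIT1, a mitochondrial citrate synthase gene, over 92.7% or more in 3 of 4.

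**Figure D4:**
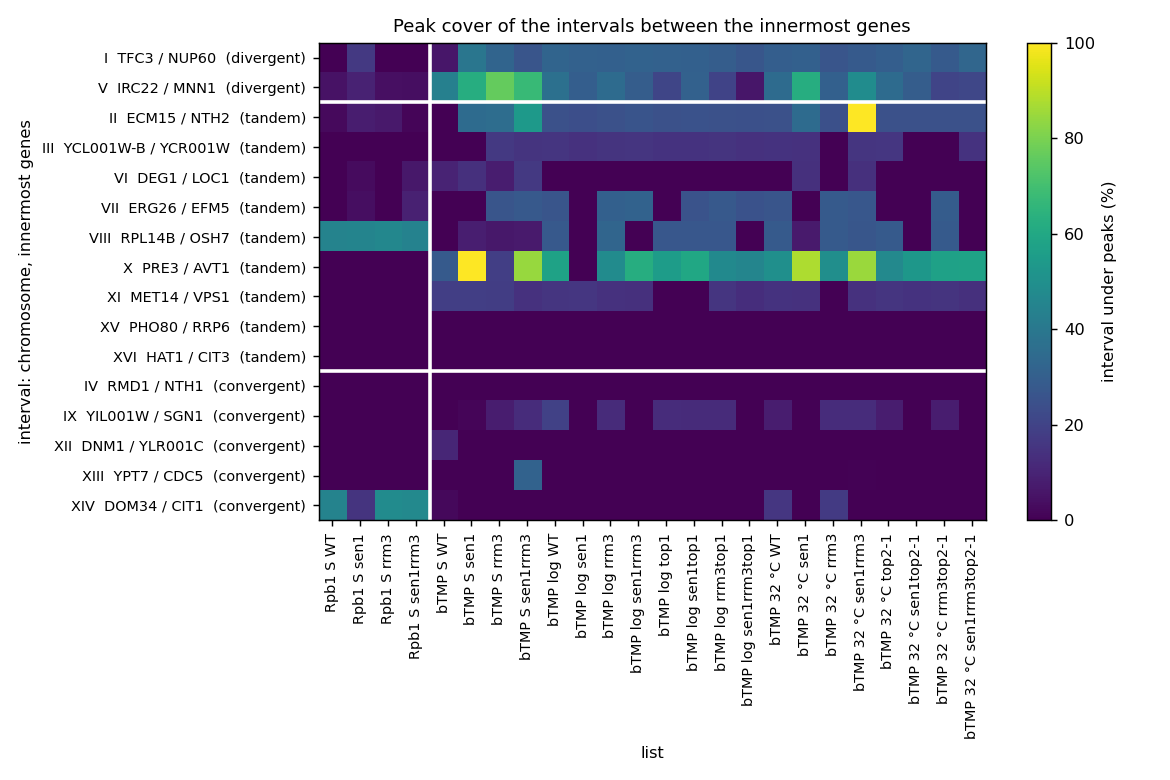
Share of each centromere interval under peaks (colour, in percent) for 16 intervals (y axis, grouped by orientation of the flanking genes) and 24 lists (x axis, 4 Rpb1 lists left of the white line). The divergent intervals of chromosomes I and V are touched in all 20 bTMP lists, while those of chromosomes IV, XV and XVI are dark in every list.

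Of the 32 innermost genes, 19 were read toward the interval and 13 away from it. Those read away were touched in a median of 15 bTMP lists and those read toward it in a median of 13. NUP60, RMD1, NTH1, SGN1, AVT1 and EFM5 were touched, in the body or the 300 bp upstream, in all 20 lists. NUP60 had the widest range of these on chromosome I, from 18.7% to 90.9% with a median of 40.9%. SGN1, an RNA-binding protein gene on chromosome IX, was the most covered of the 6, from 43.2% to 97.3% with a median of 55.5%. At the other end, DNM1 (a dynamin-related protein of mitochondrial division) was touched in 2 lists, and MET14 (adenylylsulfate kinase) and CIT3 (a mitochondrial citrate synthase) in 3 each.

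A core of bTMP peaks was present in every library. All 20 lists overlapped over 1.42% of the windows and over 0.756% of the rest of the genome. These base pairs formed 47 stretches on 13 chromosomes, with a median length of 174 bp, of 495 stretches in the genome. The innermost were chrI:152190-152314 upstream of NUP60, chrVII:497929-498094 at EFM5 and chrIX:357072-357219 at SGN1. Next in distance were chrIV:447972-448199 at RMD1 and chrVII:498710-499047 at SWC4, a subunit of the SWR1 and NuA4 complexes. Of the 389 genes in the windows, 68 (17.5%) were touched in all 20 lists, against 777 of 6431 (12.1%) in the genome. RER1, a Golgi retention receptor gene on chromosome III, was among them with a median cover of 61.7%.

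The relative cover of the windows was lower with top1 in each of the 4 strain backgrounds. The pairs of values, given without and then with top1, were 1.59 and 0.948 in the otherwise wild-type background and 1.46 and 0.909 with sen1. They were 1.44 and 1.13 with rrm3 and 1.30 and 0.885 with sen1rrm3. No top1 list reached the lowest TOP1 list. The log2 difference was -0.58 ± 0.18 (SD, n = 4 pairs), lower in 4 of 4 pairs, and an exact sign-flip test over 4 pairs cannot go below p = 0.125, the value it gave.

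The difference faded with distance. It was -0.20 at 20 to 60 kb, also lower in 4 of 4 pairs, and turned to 0.22 beyond 150 kb, where 4 of 4 pairs were higher. At 60 to 150 kb it was lower in 2 and higher in 2 pairs. Part of the difference arose outside the windows. Absolute cover of the windows was 12.9%, 12.5%, 14.3% and 10.7% in the TOP1 lists, in the order wild type, sen1, rrm3 and sen1rrm3, and 11.1%, 10.49%, 10.6% and 9.64% with top1. It was thus lower with top1 in 4 of 4 pairs. Cover outside the windows was 8.07%, 8.61%, 9.91% and 8.25% in the TOP1 lists and 11.7%, 11.53%, 9.37% and 10.9% with top1, higher in 3 pairs and lower with rrm3.

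Set against the cover outside all windows, the mean log2 difference with top1 was below 0 for the windows of all 16 chromosomes. It ran from -0.32 on chromosome IV to -1.06 on chromosome XV, and 13 of the windows were lower in every pair. The 16 chromosomes share this reference, which rose with top1 in all pairs but that of rrm3, so they are not separate repeats. In absolute terms mean cover without and with top1 was 13.9% and 13.7% on chromosome IV, and 9.80% and 6.07% on chromosome XV. Leaving out chromosome XV, whose window holds TOP1 itself, gave -0.57 (an alternative chosen after the data were seen). Against the 20 to 60 kb flanks the mean was -0.37, and with only the upper 50% of each list by score it was -0.86. Of the window peaks of the TOP1 lists, 68.7% in wild type, 58.4% in sen1, 65.5% in rrm3 and 66.5% in sen1rrm3 overlapped a peak of the top1 counterpart. Of the peaks outside the windows, 82.0%, 68.0%, 72.6% and 73.4% did. Such shares depend on how much the other list covers, so they are not separate from the difference in relative cover. The window share was the lower one in each of the 4 pairs. In the other direction it was the higher one in each: of the window peaks of the top1 lists 77.5%, 67.2%, 89.3% and 74.5% overlapped a TOP1-list peak, against 57.7%, 53.6%, 80.5% and 57.9% outside.

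Per gene, cover of the body and the 300 bp upstream was on average lower with top1 in 210 of the 389 window genes (54.0%) and higher in 91 (23.4%). Over all 6431 genes 28.9% were lower and 44.9% higher. A gene was called when its cover changed by 10 or more points in 1 direction in all 4 pairs. By that rule 6 window genes were lower with top1 (1.54%, against 0.311% of all genes) and none was higher (against 1.1% of all genes). They were YGL007C-A, GIM4, ATO2, TOP1, BRP1 and EFB1. The count includes the altered TOP1 locus itself, and 2 neighbours, YGL007C-A and BRP1, that share a peak.

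GIM4, a subunit of the prefoldin chaperone 2.4 kb from the chromosome V interval, was covered over 82.5%, 85.4%, 58.4% and 60.4% in the TOP1 lists and over 35.6%, 35.8%, 28.7% and 35.2% with top1. The peak chrV:147930-148526 of wild type had a shorter counterpart at chrV:148293-148550 in top1. The difference was -37.8 ± 12.2 points (SD, n = 4 pairs).

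ATO2, a membrane protein of ammonium export 3.4 kb from the chromosome XIV interval, was covered over 44.4%, 43.6%, 22.5% and 40.8% in the TOP1 lists. With top1 it was covered over 15.4% in sen1top1 and not touched in the other 3 lists. The peak near chrXIV:633085-633377 was present in all 4 TOP1 lists and in no top1 list.

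YGL007C-A and BRP1 lie between the plasma-membrane proton pump gene PMA1 and its neighbour on chromosome VII, and their calls share 1 peak. It spanned chrVII:482665-483125 in wild type, was within 9 bp of that in the other 3 TOP1 lists and was absent in all 4 top1 lists. YGL007C-A had 47.8%, 47.8%, 48.1% and 48.6% in the TOP1 lists and 0 in all 4 top1 lists. BRP1 had a second peak at chrVII:483442-483703 in wild type and chrVII:483452-483634 in top1, and its difference was -26.3 ± 0.85 points. EFB1, the gene of a translation elongation factor on chromosome I, had 39.6%, 42.6%, 41.2% and 39.9% in the TOP1 lists and 18.7%, 20.1%, 18.8% and 18.6% with top1, a difference of -21.7 ± 0.80 points. The snoRNA gene SNR18 lies within EFB1. SNR18 was touched in all 20 bTMP lists and did not meet the rule with top1. The stretch chrI:142318-142555, at EFB1 and SNR18, was under peaks in every bTMP list.

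The sen1 allele gave no shared direction around the centromeres. Over 10 pairs of lists that differ by sen1, relative cover was higher in 5 and lower in 5. The log2 differences averaged -0.02 ± 0.18 (SD over 10 pairs), and the exact permutation test by sign flips gave p = 0.75, or 0.791 after Benjamini-Hochberg adjustment over 10 tests. By condition the pairs split. All 4 logarithmic pairs were lower with sen1, from -0.35 to -0.06, and all 4 pairs at 32 °C were higher, from 0.04 to 0.24. At 32 °C 2 of the 4 pairs compared a widely with a closely spaced list. Those 2 gave 0.21 and 0.24, and the 2 pairs of like lists, both with top2-1, gave 0.05 and 0.04. Under the rule of 10 points in at least 7 of 10 pairs with at most 1 pair the other way, 1 window gene was higher with sen1, YBL005W-B, against 0.264% of all genes. It is a Ty1 element gene in repeated sequence, and its cover is uncertain for that reason. MSL1, a U2 snRNP component on chromosome IX, was lower by 10 points or more in 8 of 10 pairs, with a mean of -24.2 ± 24.5 points. It was the only gene called lower with sen1 among all 6431, 0.257% of window genes and 0.0155% of all genes. The second share is thus this gene alone and no separate background.

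With rrm3, relative cover was lower in 9 of 10 pairs, but the average of -0.08 ± 0.15 on the log2 scale (SD over 10 pairs) did not pass the exact permutation test (p = 0.127, or 0.317 after adjustment over 10 tests). The exception was rrm3top1 against top1, higher by 0.25. Without that pair, the only higher one, the mean was -0.12 and the adjusted p of the same permutation test 0.0391. The 9 pairs left share a sign, so the test could only give its smallest value, and nothing is concluded from it. Leaving out other single pairs gave adjusted p-values up to 0.527. The 2 S-phase pairs had the lowest mean, -0.24. At 20 to 60 kb the mean was -0.01, with 5 pairs lower and 5 higher, and the difference between the distances was not tested.

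By the same rule 3 window genes were lower with rrm3, against 0.389% of all genes, and none was higher, against 0.187%. MEH1, a component of the EGO complex that anchors TORC1 signalling to the vacuole, lies 10.8 kb from the chromosome XI interval. Its cover in S phase was 100% in wild type, 100% in sen1, 9.36% in rrm3 and 0 in sen1rrm3. In logarithmic cells it was 66.9% in wild type, 53.3% in sen1, 27.7% in rrm3 and 27.7% in sen1rrm3. In both conditions the rrm3 lists lay below the others. At 32 °C the values were 26.1% for wild type and 100% for sen1, with no peak in rrm3 or sen1rrm3. With top2-1 they were 40.8% without and 27.9% with rrm3, and 27.9% and 27.3% in the sen1 background. Over 10 pairs MEH1 was lower by 10 points or more in 8, with a mean of -38.2 ± 44.1 points, and higher in 1, sen1rrm3top1 against sen1top1, at 52.9% and 27.0%.

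PRE3, which borders the chromosome X interval and is read toward it, had 40.5% in S-phase wild type and 46.3% in sen1, and 0 in rrm3 and 13.6% in sen1rrm3. It was lower with rrm3 by 10 points or more in 7 of 10 pairs and higher in 1, with a mean of -14.7 ± 17.4 points. UGA2, the succinate semialdehyde dehydrogenase gene on chromosome II, averaged -13.2 ± 16.2 points and was lower in 7 of 10 pairs. Its cover in logarithmic cells was 39.9% in wild type and 23.7% in sen1, and 0 in rrm3 and sen1rrm3. For all 3 genes the spread over pairs exceeded the mean.

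The top2-1 pairs at 32 °C split by the kind of list. The log2 difference was 0.02 ± 0.10 (SD, n = 4 pairs), with 2 pairs higher and 2 lower, and 2 of the 4 pairs mix the kinds of list. The 2 pairs of like lists, wild type and rrm3, were both higher with top2-1, by 0.12 and 0.10, a mean of 0.11, and the 2 mixed pairs were both lower. By the rule for 4 pairs, 2 window genes were lower, against 0.902% of all genes, and none was higher, against 0.0777%. Both lie on chromosome IV about 15 kb from the interval: YDR010C, lower by 44.2 ± 18.5 points, and SNQ2, a multidrug transporter gene, lower by 29.7 ± 20.2 points. SNQ2 had 13.98%, 55.8%, 17.8% and 49.8% in the TOP2 lists and 3.35%, 4.39%, 3.5% and 7.43% with top2-1. The widely spaced sen1 and sen1rrm3 lists gave the largest of these gaps.

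Relative cover was lower in S phase and at 32 °C than in logarithmic growth. S phase against logarithmic growth gave -0.18 ± 0.10 on the log2 scale (SD, n = 4 pairs), lower in 4 of 4, and every one of these pairs mixes the kinds of list. The 32 °C cultures against logarithmic growth gave -0.36 ± 0.22, lower in 4 of 4, and the 2 pairs of like lists, wild type and rrm3, gave -0.54 (an alternative chosen after the data were seen). Exact sign-flip tests over 4 pairs cannot go below p = 0.125. These comparisons and the top1 comparison share the 4 logarithmic TOP1 lists, so their common direction is not independent.

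Absolute cover of genes was higher in the widely spaced S-phase lists, in the windows as in the whole genome. By the rule of 10 points in all 4 pairs, 72 window genes were higher in S phase (18.5%, against 13.7% of all genes) and 1 was lower, ANY1, against 0.342%. The largest differences were at the tRNA genes TGA1, SUP11 and SUF2, the small open reading frames YMR001C-A and YGL006W-A, and TRP1 and LEU1, which encode enzymes of tryptophan and leucine synthesis. TRP1 was covered over 100% in all 4 S-phase lists and over 21.9%, 16.7%, 21.6% and 18.3% in logarithmic cells. TRP1 is a common marker gene, and the strains' marker alleles are not given in the labels. At 32 °C 1 window gene was lower than in logarithmic cells, against 0.14% of all genes, and none was higher, against 1.2%. It was YEA6, a mitochondrial NAD transporter gene on chromosome V, with 14.1% to 14.98% in the 4 logarithmic lists and 0 in the 4 lists at 32 °C.

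Rpb1 peaks differed between strains at few pericentromeric genes, and most of the genes gained in sen1 were tRNA genes, which RNA polymerase III transcribes. A gene was counted as gained when Rpb1 peaks covered at least 50% of its body and none of it in wild type, and as lost in the opposite case. With 1 list per strain these counts have no test. In sen1, 13 window genes were gained (3.34%, against 2.88% of all genes) and 3 were lost (0.771%, against 0.7%). Of the 13, 10 were tRNA genes, 34.5% of the 29 in the windows, against 25.5% of all 275. Both shares are near the background.

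Rpb1 peaks touched 4 of the 29 tRNA genes in wild type, 16 in sen1, 6 in rrm3 and 11 in sen1rrm3. Mean cover of their bodies was 13.8%, 45.2%, 15.1% and 30.8%, and outside the windows it was 16.9%, 44.0%, 16.8% and 31.8%. SUF2, YNCE0010W and EMT3 were covered over 100% in all 4 lists, and TGA1 over 100% in all but rrm3, where it was at 0. TRN1, YNCM0009C and YNCH0003C were at 0 in wild type and rrm3 and at 100% in sen1 and sen1rrm3. All 11 tRNA genes touched in sen1rrm3 were also touched in sen1. The 3 nearest to an interval, SUF10, YNCN0017W and YNCP0008C within 4 kb, were at 0 in all 4 lists, as were 13 of 29 in all. The 3 snoRNA genes SNR18, SNR43 and SNR87 and the U4 snRNA gene SNR14 were covered over 100% in all 4 lists.

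**Figure D5:**
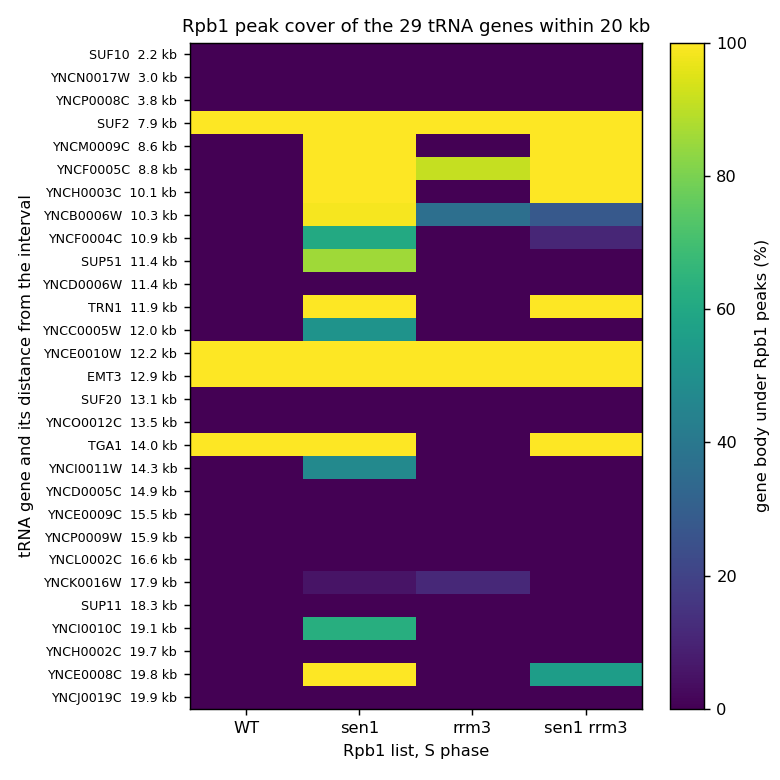
Share of the gene body under Rpb1 peaks (colour, in percent) for the 29 tRNA genes within 20 kb, ordered by distance from the interval (y axis), in the 4 S-phase strains (x axis). The sen1 column has 16 touched genes and the wild-type column 4.

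Among protein-coding genes, STP22, an ESCRT-I subunit gene on chromosome III, went from 0 in wild type and rrm3 to 100% in sen1 and sen1rrm3. POL31, a subunit of DNA polymerase delta, and TIR4, a cell-wall mannoprotein gene, did the same, with 79.7% and 52.9% in sen1 and 71.2% and 62.6% in sen1rrm3. CIT1, which borders the chromosome XIV interval, was at 98.9% in wild type, 0 in sen1, 100% in rrm3 and 92.7% in sen1rrm3. The wild-type peak chrXIV:629303-631045 thus had counterparts in rrm3 and sen1rrm3 but not over CIT1 in sen1. QCR10, a cytochrome bc1 subunit gene 1.8 kb from the chromosome VIII interval, had 55.9%, 0, 51.2% and 67.7% in the same order. The losses of both genes in sen1 were absent in sen1rrm3.

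In rrm3, 2 window genes were gained (against 0.171% of all genes) and 3 were lost (against 0.264%). MET14, beside the chromosome XI interval, was at 57.5% in rrm3 and at 0 in the other 3 strains, and the tRNA gene YNCF0005C was at 91.3%. TGA1, YDL009C and YGL007C-A were lost. In sen1rrm3, 8 genes were gained (2.06%, against 1.62% of all genes) and 1 was lost, YGL007C-A (0.257%, against 0.684%). YGL007C-A, an 87 bp gene beside PMA1, was at 97.7% in wild type and 0 in the other 3, while PMA1 itself was at 100% in all 4. NUP60 and AVT1, both read away from their intervals, did not meet the rule: NUP60 had 43.3%, 85.1%, 34.2% and 59.8% and AVT1 had 56.9%, 88.7%, 45.4% and 75.4% in wild type, sen1, rrm3 and sen1rrm3.

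The windows also differed from the rest of the genome in how Rpb1 and bTMP peaks overlapped in S-phase cells. The share of base pairs under both was divided by the product of the separate shares, so that 1 means no more overlap than the shares alone give. In the windows the ratio was 0.982 in wild type, 1.25 in sen1, 1.09 in rrm3 and 1.17 in sen1rrm3. Outside it was 1.24, 1.39, 1.25 and 1.32 in the same order, higher than in the windows in each of the 4 strains. In wild type, bTMP peaks covered 23.9% of the base pairs under Rpb1 peaks in the windows and 24.4% of the others, against 21.1% and 16.1% outside. With 4 strains and 1 library each, no test was made of this difference.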

How the data were processed

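Immunoprecipitated and input libraries were deposited for 24 groups, and the peak lists of the 24 immunoprecipitates were analysed. The submitters' processing notes name Bowtie2, Picard, SAMtools and deepTools, with no version. How peaks were called and on which genome build is not stated in the labels or files. Each list belongs to 1 library. The deposited score of a peak is the authors' value, of unstated scale, and was used only to rank peaks within a list. Depth is unknown, inputs were not analysed, and 74 mitochondrial peaks were left out. Gene names and neighbours come from the RefSeq table of assembly R64. As a check of position, Rpb1 peaks in wild type covered 99.3% of the bodies of 138 ribosomal protein genes, and 79.9% and 85.1% with genes shifted by 400 bp to either side.

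The members and gene lists were chosen with earlier results of these data known. Cover was computed per base pair. Lists that differ by 1 allele or condition were paired and tested on log2 ratios of relative cover by two-sided sign-flip permutation (100000 resamples for 20 lists, exact enumeration for pairs), with Benjamini-Hochberg adjustment over the sen1 and rrm3 tests in 5 distance classes. The rule for 4 pairs was added after the data were seen. Genes named are the innermost ones, up to 8 per direction and comparison that met a rule, and those nearest the intervals touched in all 20 bTMP lists; other tRNA, snoRNA and snRNA genes and PMA1 were named after their values were seen. Alternatives were other window widths, score thresholds, list lengths, peak midpoints, left-out chromosomes and left-out pairs. Python 3.11.15, numpy 2.4.6, pandas 2.3.3, scipy 1.17.1 and matplotlib 3.10.9 were used, and the scripts were tested on simulated data.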

Additional observations from a re-analysis of the deposited data

Results flagged for a closer look

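The sen1 pairs moved in opposite directions in logarithmic growth and at 32 °C. The mean log2 difference in relative cover was -0.17 over the 4 logarithmic pairs, lower in 4 of 4, and 0.13 over the 4 pairs at 32 °C, higher in 4 of 4. The means differ by 0.307 (exact permutation test of condition labels over 8 pairs, p = 0.0286, the smallest 70 permutations can give; 0.171 after adjustment over 6 such comparisons). In 2 of the 4 pairs at 32 °C, a widely spaced list was set against a closely spaced one. Those pairs gave 0.21 and 0.24, and the 2 pairs of like lists gave 0.05 and 0.04. In S phase 1 pair was higher and 1 lower.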

How the results depend on the processing

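Under the alternatives, 105 values kept direction and side of the threshold or stayed within the spread, and 22 moved. In addition 1 reversed direction, the sen1 mean with 1 pair left out (0.0186), and 1 crossed the threshold, the rrm3 result without its only higher pair. The top1 difference (-0.58) became -0.861 with the upper 50% of each list by score, -0.789 with lists of equal length and -0.369 against 20 to 60 kb, and the S-phase difference (-0.18) became -0.284 with peak midpoints per kb. Rpb1 log2 relative cover (0.0438) became -0.0664 in a 10 kb window, 0.206 in a 30 kb window, -0.0194 with the upper 50% by score, 0.176 with midpoints, -0.0719 without chromosome II and -0.0263 without chromosome ends. Gene counts with sen1 (2) became 0 at 20 points, 1 at 8 of 10 pairs and 1 with the gene body only, and with rrm3 (3) became 0 and 1 under the first 2 of these. At 80% against at most 20%, Rpb1 gains fell to 8 in sen1, 1 in rrm3 and 5 in sen1rrm3. With the upper 50% by score, losses rose to 8 in sen1 and 7 in sen1rrm3. When 50% of an interval had to be covered, combinations of interval and list touched went from 162 to 17 of 320 for bTMP, 11 of them on chromosome X, and from 21 to 0 of 64 for Rpb1. Leaving out 1 pair at a time gave -0.0467 to 0.0186 for sen1, -0.115 to -0.0512 for rrm3, -0.66 to -0.526 for top1, -0.00984 to 0.0606 for top2-1, -0.206 to -0.134 for S phase and -0.448 to -0.286 for 32 °C. The cause of these changes was not tested. The labels carry no replicate numbers, so no pairing was possible beyond that by background and condition already used. Without reads, a region with no peak cannot be told from one below the authors' threshold.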
